A study of Mus musculus with 20 samples.

Results

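Organoids grown from mammary tumors of MMTV-PyMT mice were compared with organoids grown from normal mammary glands. The tumor side holds 4 polyA+ RNA-seq libraries: 2 titled PyMT organoids day6 (n1 and n2) and 2 titled PyMT organoids with no day in the title (n1 and n2, called undated here), whose labels also give a culture time of 6 days. The normal side holds 3 wild type (WT) libraries with the same labelled culture time. These 7 libraries were taken by title from the 20 in the series, and all genes entered 1 model of raw counts. A further library, PyMT organoids day6 n3, was left out because its overall profile resembles a tumor section, so its values are given apart and the model was also run with it.

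All mice were of the FVB strain. In the MMTV-PyMT genotype, the mouse mammary tumor virus promoter, which is active mainly in mammary epithelium, drives the polyoma middle T antigen. The growth protocol describes culture of tumor organoids in Matrigel with FGF2, and names the PyMT tumors only. RNA was extracted with TRIzol and 1 µg per sample went into TruSeq libraries. Nothing in the labels ties a library to an animal. What the tests weigh is therefore the library-to-library spread, which may be partly technical. Reads of the viral transgene were not analysed here, so no gene in these tables checks the genotype directly. In these bulk samples, fewer cells of a type and less RNA per cell cannot be told apart.

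As background, the mammary duct has an inner luminal layer, which holds hormone receptor cells and milk-forming cells, and an outer basal layer of contractile myoepithelial cells. Middle T is a membrane-anchored viral scaffold without enzyme activity of its own. It binds Src family kinases and protein phosphatase 2A, and once phosphorylated it recruits Shc and phosphatidylinositol 3-kinase, so that it acts much like an activated growth factor receptor. Organoid culture in Matrigel with a growth factor favors epithelial fragments over stroma.

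The 7 libraries held 19046725 to 45585014 reads counted on genes. The 3 WT libraries correlated at 0.983 to 0.987 in log2 CPM (counts scaled to library size) across 16305 genes, and the 4 PyMT libraries at 0.946 to 0.979, lowest for pairs with day 6 replicate 2. The left-out library correlated at 0.991 with PyMT tumor section 3 and at 0.854 to 0.896 with the 4 PyMT libraries. Epithelial identity was plain in all 7: Epcam, an epithelial adhesion molecule, ranged from 1067 to 2130 CPM, the luminal keratin Krt8 from 1131 to 2095 CPM, and the basal keratin Krt14 from 589 to 4323 CPM. Epcam and Krt8 overlapped between WT and PyMT. In the left-out library Krt14 stood at 18.5 CPM.

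Of 16305 genes tested with edgeR's quasi-likelihood test, 1006 were higher in PyMT organoids (6.17%) and 1427 lower (8.75%) at a Benjamini-Hochberg adjusted p under 0.05. Among the 2433 calls, 2414 had no overlap between the 4 PyMT and 3 WT libraries. Over all 16305 genes, called or not, 2133 (13.1%) lay higher and 2896 (17.8%) lower in PyMT without overlap. Lack of overlap alone is therefore common here and adds little to a call. Large changes lay mostly on the falling side: 436 called genes were more than 8-fold lower and 78 more than 8-fold higher. The numbers depended on single WT libraries, with 1344, 1076 and 1139 calls without WT replicate 1, 2 or 3, and with the left-out library included there were 546. All 546 were among the 2433, and no call changed direction.

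The gene lists used below hold genes of 1 pathway or cell type each. A list's count of called members reads against 6.17% higher and 8.75% lower over all genes, and its median log2 fold change against 0.0.

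**Figure D1:**
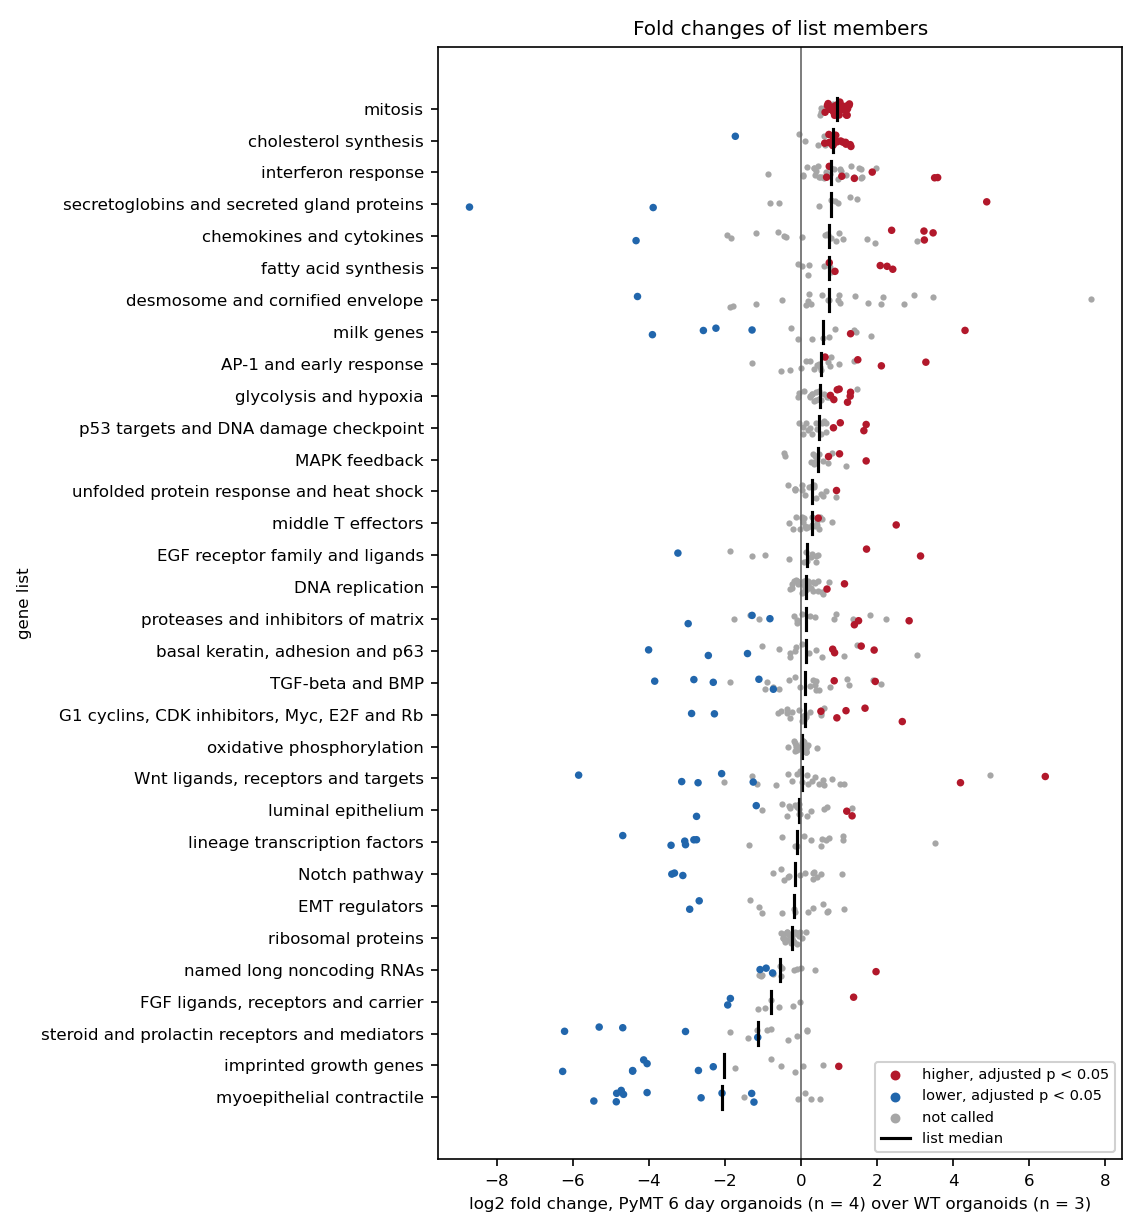
Each point is a tested member of a gene list (rows), placed by its log2 fold change in PyMT over WT organoids (x axis); red and blue points have adjusted p under 0.05, gray points do not, and black bars are list medians. All 31 mitosis genes sit right of 0, as do 21 of 23 cholesterol genes, while the myoepithelial contractile, imprinted and steroid receptor lists reach far to the left.

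The 3 serum amyloid A genes had the highest fold rises among called genes that averaged 10 CPM or more in the higher group, did not overlap between the groups and do not carry a predicted name. They encode acute phase proteins that are secreted under inflammatory stimulation. Saa2 (chromosome 7, 46751790 to 46754313) was at 2.83, 2.18 and 1.751 CPM in the WT libraries, 681 and 394 CPM in the day 6 libraries and 519 and 559 CPM in the undated libraries. The groups lay far apart and the 4 PyMT libraries were close to each other. This was a 238-fold rise (7.89 on the log2 scale, SE 0.32, adjusted p = 1.41e-05). Saa1 went from 4.16, 2.51 and 2.55 CPM in WT to 711, 373, 384 and 478 CPM in PyMT (log2 fold change 7.30, SE 0.38, adjusted p = 5.88e-05). Saa1 and Saa2 are near-identical neighbors, so reads could be split between them and their separate values are uncertain. Saa3, a less similar member, rose from 0.0890 to 0.208 CPM in WT to 8.53, 21.6, 5.62 and 14.8 CPM in PyMT (log2 fold change 6.5, SE 0.64). All 3 kept their calls whichever library was left out and with the left-out library added. In that library they stood at 10.3, 6.37 and 0.412 CPM for Saa1, Saa2 and Saa3, closer to the WT than to the PyMT levels.

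The upstream sequences of the 3 genes are shown because they rose together. Taken from RefSeq (GRCm38.p6), each stretch lies within 250 bases before the gene's start and runs 5′ to 3′ on the gene's strand. Capitals mark TTGCNNAA on either strand (the opposite one in Saa3), the core letters of a C/EBP site, a factor family known for acute phase genes. The stretches are chr7:46743110-46743207 (minus strand) for Saa1, chr7:46751605-46751702 (plus strand) for Saa2 and chr7:46715723-46715820 (minus strand) for Saa3.
Saa1: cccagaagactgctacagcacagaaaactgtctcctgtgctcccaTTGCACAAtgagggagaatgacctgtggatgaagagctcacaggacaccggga
Saa2: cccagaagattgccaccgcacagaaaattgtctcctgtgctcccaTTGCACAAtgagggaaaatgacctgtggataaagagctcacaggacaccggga
Saa3: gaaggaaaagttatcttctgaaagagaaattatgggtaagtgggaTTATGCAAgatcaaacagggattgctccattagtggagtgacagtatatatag
Saa1 and Saa2 share 92 of the 98 bases printed. The letters occur in this window for all 3 genes and for 10.8% of all 27025 genes in the table, and a match of letters is not evidence of binding.

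Further large rises were seen in genes of varied function. Fcer2a, the low-affinity IgE receptor CD23, was at 0.300, 0.332 and 0.683 CPM in WT, 5.69 and 4.21 CPM in the day 6 libraries and 26.0 and 33.5 CPM in the undated ones (log2 fold change 5.32, SE 0.92, adjusted p = 0.00807). The undated set exceeded WT by more than the day 6 set did. Lef1, a transcription factor that carries Wnt signals to the nucleus, rose from 0.976, 1.60 and 1.01 CPM to 40.4, 5.51, 30.3 and 11.6 CPM (log2 fold change 4.19, SE 0.73, adjusted p = 0.00799). Its lowest PyMT library was day 6 replicate 2. Clca3a2, a member of the calcium-activated chloride channel regulators, rose to 113, 40.7, 134 and 97.8 CPM from 5.03 to 8.07 CPM in WT (log2 fold change 3.99, SE 0.44). Slit1, a secreted guidance protein for axons, rose to 22.8, 67.0, 18.4 and 51.9 CPM from 2.53 to 4.54 CPM (log2 fold change 3.59, SE 0.53). Each call held without any 1 library, but narrowly for Fcer2a and Lef1 (largest adjusted p = 0.0499 and 0.0498). In the left-out library Fcer2a, Lef1 and Slit1 stood at 0.0375, 0.225 and 0.637 CPM, below every WT library, and Clca3a2 at 445 CPM. With it in the model Fcer2a, Lef1 and Slit1 lost their calls (adjusted p = 0.134, 0.15 and 0.16) and Clca3a2 kept its call.

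Klk6, a secreted serine protease of the kallikrein family, and Cdsn, corneodesmosin of cornified epithelium, rose in all 4 PyMT libraries but most in day 6 replicate 2. Klk6 stood at 16.9, 172, 9.44 and 28.8 CPM against 0.727 to 1.68 CPM in WT, and Cdsn at 18.8, 173, 18.9 and 44.0 CPM against 5.57 to 8.73 CPM. Cwh43, which acts on the lipid of membrane anchors, followed the same order with 26.9, 297, 28.1 and 58.3 CPM against 5.42 to 8.69 CPM. Sparcl1, a secreted matrix protein, was instead highest in day 6 replicate 1 (1060 CPM) and lowest in day 6 replicate 2 (90.1 CPM), against 21.4 to 64.6 CPM in WT. Slc25a34, a mitochondrial carrier, was high in the day 6 libraries (44.1 and 20.4 CPM) and lower in the undated ones (3.41 and 4.02 CPM), against 0.436 to 0.742 CPM in WT. Car6, a secreted carbonic anhydrase, reached 51.7, 21.9, 10.01 and 9.15 CPM against 1.27 to 2.68 CPM, and 9192 CPM in the left-out library. These 6 rises passed the test, with log2 fold changes from 3.25 (Cdsn) to 5.63 (Klk6), but each lost its call without at least 2 of the WT libraries. Without the library that weakened it most, the adjusted p was 0.122 for Klk6, 0.166 for Cdsn, 0.155 for Cwh43, 0.0977 for Sparcl1, 0.0898 for Slc25a34 and 0.0692 for Car6. Cwh43 and Cdsn also lost it without undated replicate 2, and Sparcl1 without undated replicate 1.

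**Figure D2:**
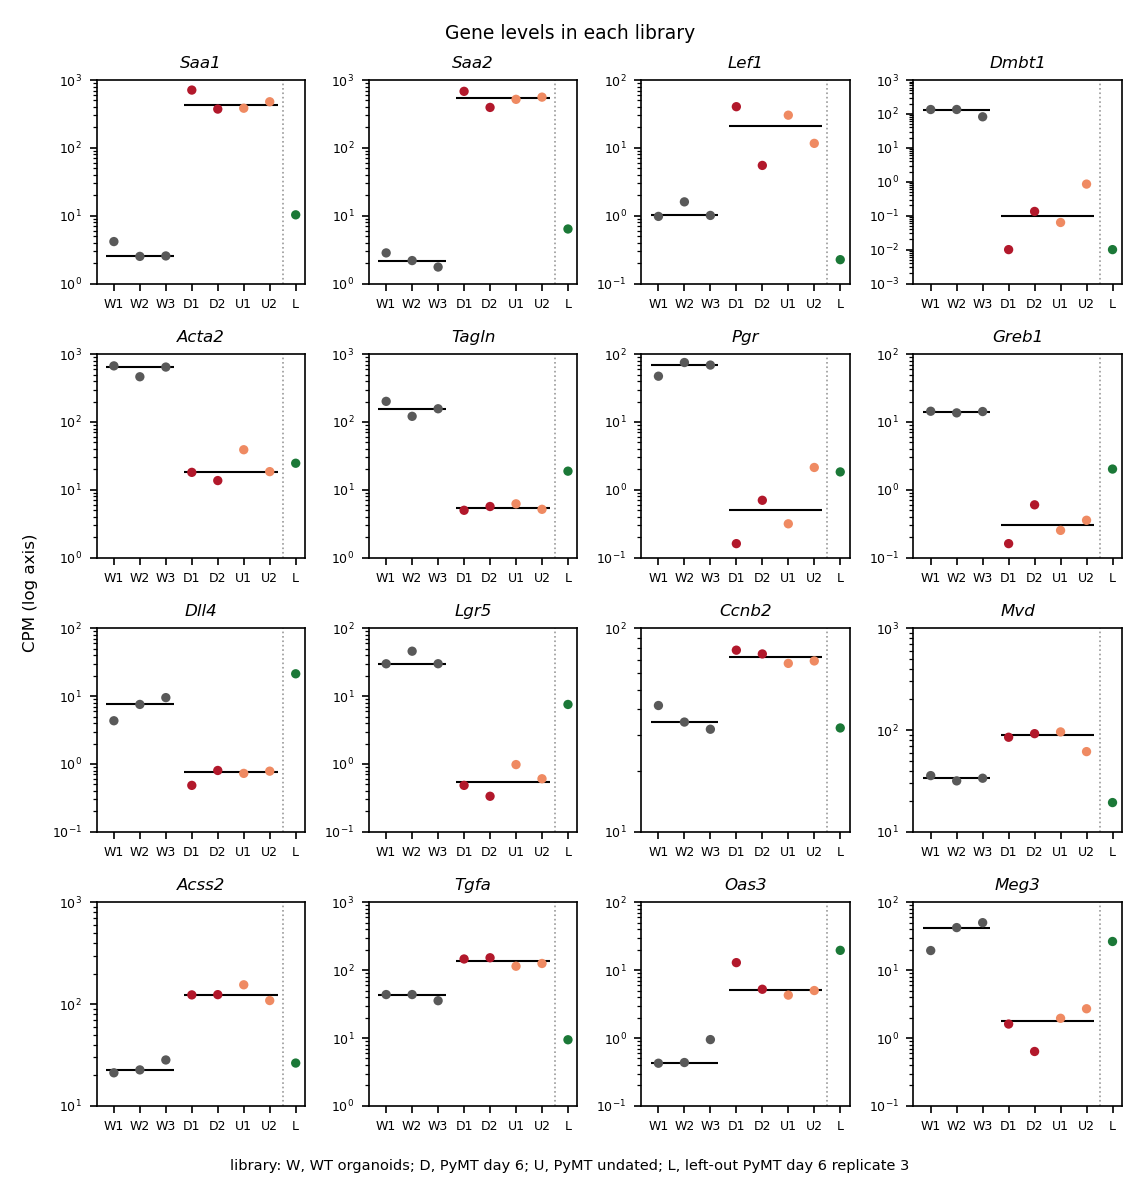
Each panel gives 1 gene's CPM (log axis) in the 3 WT libraries, the 2 PyMT day 6 libraries, the 2 PyMT undated libraries and the left-out library (green, right of the dotted line), with group medians as black lines; values of 0 are drawn at 0.01. In all 16 genes the 4 PyMT libraries lie on 1 side of the 3 WT libraries, which was required of those named as largest rises or falls. The left-out library often does not follow the 4, as with Saa1, Dll4 and Tgfa.

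Most contractile genes of myoepithelial cells fell, while basal keratin and adhesion genes split between higher, lower and not called. Of 15 tested members of the contractile list, 10 were lower and 0 higher, with a median log2 fold change of -2.08. Acta2, smooth muscle actin and the usual marker of myoepithelium, was at 671, 464 and 645 CPM in WT and 18.1, 13.7, 39.0 and 18.5 CPM in PyMT (log2 fold change -4.73, SE 0.38, adjusted p = 0.00041). No PyMT library came near the WT range. Tagln, an actin-binding protein of smooth muscle, was at 201, 121 and 157 CPM in WT and 4.99, 5.67, 6.22 and 5.16 CPM in PyMT (log2 fold change -4.85, SE 0.20, adjusted p = 1.41e-05). Its 4 PyMT values were the most even of the group. Myh11, smooth muscle myosin, fell from 91.6, 69.5 and 89.8 CPM to 3.60, 1.00, 1.80 and 1.46 CPM (log2 fold change -5.45, SE 0.39). Oxtr, the oxytocin receptor that triggers milk ejection, fell from 120, 151 and 99.8 CPM to 3.86, 1.64, 7.89 and 3.59 CPM (log2 fold change -4.86, SE 0.47). Cnn1 (-4.05) and Actg2 (-4.67), further smooth muscle proteins, fell as well. Acta2, Tagln, Myh11, Oxtr, Cnn1 and Actg2 kept their calls without any 1 library, and 9 to 11 members were called lower across those fits, with 1 called higher without day 6 replicate 2. Mylk, the myosin light chain kinase, fell by 2.08 on the log2 scale and lost its call without any WT library and without either undated library (largest adjusted p = 0.114).

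Not every member moved. Myl9, the regulatory light chain, was lower in all 4 PyMT libraries (57.8, 9.25, 78.2 and 40.7 CPM against 109 to 145 CPM) without passing the test (adjusted p = 0.112). Srf, the general transcription factor of this program, stood at 54.9 to 66.6 CPM in WT and 58.0 to 68.2 CPM in PyMT and overlapped. With the left-out library in the model, 7 members were still lower. In that library Acta2 stood at 24.6 CPM and Tagln at 18.8 CPM. Fibroblast markers summed to 1554 to 2505 CPM in WT, 438 to 1346 CPM in PyMT and 4086 CPM in the left-out library. Their mean log2 CPM was 4.46 to 5.09, 1.71 to 2.99 and 6.13. Pericyte and Schwann markers summed to 836 to 908, 718 to 991 and 1037 CPM. The part of cells other than myoepithelium in the fall of the contractile genes was not tested. The CArG box, the site of Srf, was searched as the exact letters CCWWWWWWGG (W is A or T) in the 250 bases before the start. Of the 12 members with a RefSeq promoter, 2 held these letters (Myl9 and Srf itself), against 1.62% of all genes. None of the 7 called members among the 12 did. Sites that differ from these letters or lie elsewhere were not searched, so this does not show that the called members lack Srf sites.

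Within the basal keratin and adhesion list, 4 of 20 members were higher and 3 lower, with a median log2 fold change of 0.12. The risers included matrix receptors and a chain of their ligand. Itga3, the laminin receptor subunit integrin alpha 3, was even in WT at 92.1, 93.7 and 94.7 CPM and rose to 341, 301, 360 and 414 CPM (log2 fold change 1.92, SE 0.16, adjusted p = 0.00041). Itgb4, the integrin beta 4 of hemidesmosomes, rose from 186, 178 and 165 CPM to 652, 552, 488 and 413 CPM (log2 fold change 1.58, SE 0.19, adjusted p = 0.00172). Both were separated from WT in every library and kept their calls without any 1 library. Lamb3 (log2 fold change 0.88), a laminin chain, also rose. Its call was lost without any WT library and without either undated library (largest adjusted p = 0.123). The list had 2 members higher without any WT or undated library and 3 without day 6 replicate 1. The 3 members that fell were Krt15, a basal keratin, at 77.7, 56.6 and 56.8 CPM against 11.7, 19.6, 4.26 and 11.3 CPM (log2 fold change -2.44), Ngfr, a neurotrophin receptor (-4.01), and Sparc, a matrix protein (-1.41). Trp63, the transcription factor p63 of basal cells, overlapped between groups, with 57.2 to 81.8 CPM in WT and 55.2 to 159 CPM in PyMT. In the left-out library Trp63 stood at 3.26 CPM and the list's summed level at 1466 CPM, against 4769 to 12430 CPM in the other 7.

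Several genes of the hormone-sensing luminal cell fell. Of 14 tested members of the steroid and prolactin receptor list, 5 were lower and 0 higher, with a median log2 fold change of -1.15. Pgr, the progesterone receptor, was at 47.3, 75.2 and 69.0 CPM in WT and 0.161, 0.701, 0.316 and 2.14 CPM in PyMT (log2 fold change -6.22, SE 0.68, adjusted p = 0.00147). Greb1, an estrogen receptor target and coactivator, was even in WT at 14.4, 13.6 and 14.2 CPM and fell to 0.161, 0.601, 0.253 and 0.356 CPM (log2 fold change -5.31, SE 0.39, adjusted p = 0.000278). Foxa1, the pioneer factor that opens chromatin for the estrogen receptor, went from 35.9, 52.1 and 42.7 CPM to 5.10, 2.17, 7.20 and 6.66 CPM (log2 fold change -3.04, SE 0.37). For each of the 3, all PyMT libraries lay below all WT libraries. Pgr and Greb1 were named by a rule that required this. Tbx3, a T-box factor of hormone receptor cells (-4.69), and Stat5a, the main prolactin signal transducer (-1.14), were the other called members. The receptor Esr1 itself, with 9.81, 18.0 and 13.8 CPM in WT and 3.49, 1.84, 9.19 and 6.37 CPM in PyMT, did not pass (adjusted p = 0.0900), nor did Prlr (0.0600) or the estrogen-induced ligand Areg (0.0574). Between 5 and 7 members were lower without any 1 library, and 3 with the left-out library, where Pgr stood at 1.84 CPM and Foxa1 at 0.112 CPM.

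General luminal genes were little changed, with 2 of 20 higher and 2 lower. Krt7, a luminal keratin, rose from 167 to 213 CPM in WT to 350, 677, 367 and 473 CPM (log2 fold change 1.34), and Prom1, the surface protein CD133, from 52.8 to 68.5 CPM to 195, 129, 97.9 and 137 CPM (1.20). Both rises were lost without WT replicate 2 (adjusted p = 0.0576 and 0.0520), Krt7 also without WT replicate 3 and Prom1 also without WT replicate 1. Kit, the stem cell factor receptor of luminal progenitors, fell from 534, 546 and 442 CPM to 277, 164, 261 and 191 CPM (log2 fold change -1.18, SE 0.21). Cited1, a coregulator of estrogen receptor cells, fell from 8.09, 10.7 and 18.3 CPM to 1.54 to 2.17 CPM (-2.75). Elf5 and Gata3, factors of the alveolar and the whole luminal lineage, did not pass the test, with adjusted p = 0.156 and 0.844.

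Milk genes split. Lalba, alpha-lactalbumin of lactose synthesis, was at 1611, 1277 and 1514 CPM in WT and 212, 14.1, 103 and 60.5 CPM in PyMT (log2 fold change -3.91, SE 0.75, adjusted p = 0.0119). Btn1a1, butyrophilin of the milk fat globule, fell from 48.3, 44.98 and 40.5 CPM to 4.08, 3.84, 14.7 and 7.33 CPM (-2.57, SE 0.44). Both kept their calls without any 1 library and lost them with the left-out library in the model. Csn2, beta-casein, was called higher (4.31) from low levels, 0.0208 to 0.125 CPM in WT and 0.215 to 1.84 CPM in PyMT, and lost its call without 5 of the 7 libraries, these being WT replicates 2 and 3, day 6 replicate 2 and both undated libraries (largest adjusted p = 0.0646). In all, 4 of 15 members were lower and 2 higher; 0 were higher without WT replicate 2 or 3 or undated replicate 1, and 1 without undated replicate 2.

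Of 19 tested lineage factors, 6 were lower (Foxa1, Tbx2, Tbx3, Id4, Hoxb3 and Msx1) and 0 higher; all 6 kept their calls without any 1 library, and 2 members were called with the left-out library. Tbx3 was at 7.99, 17.0 and 14.4 CPM in WT and 0.0537, 0.267, 0.884 and 0.747 CPM in PyMT (log2 fold change -4.69, SE 0.65). Its neighbor and relative Tbx2 fell from 3.71 to 5.16 CPM to 0.215 to 0.726 CPM (-3.06, SE 0.40). Tbx3os2, a noncoding RNA listed beside Tbx3 (chromosome 5, from 119685095), had 0 counts in all 4 PyMT libraries against 1.25, 1.64 and 3.50 CPM in WT, at least 73.3-fold lower when 3 counts over the PyMT group are taken as the floor. All 3 are therefore low in the same 4 libraries. Id4, an inhibitor of basic helix-loop-helix factors that marks basal cells, fell from 50.9, 71.8 and 49.9 CPM to 3.92, 12.9, 6.12 and 9.64 CPM (-2.82, SE 0.37).

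Some ligands, receptors and targets of Wnt, Notch and BMP signaling fell. In the Wnt list 5 of 27 members were lower and 2 higher. Lgr5, the R-spondin receptor and a stem cell marker, was at 29.9, 45.9 and 30.0 CPM in WT and 0.483, 0.334, 0.979 and 0.605 CPM in PyMT (log2 fold change -5.85, SE 0.36, adjusted p = 0.000177). No PyMT library reached 1 CPM. The relatives Lgr4 and Lgr6 overlapped or did not pass (adjusted p = 0.148 and 0.446). The noncanonical ligand Wnt5a fell from 25.5, 43.2 and 35.9 CPM to 6.23, 12.6, 7.61 and 6.37 CPM (-2.09, SE 0.29), and the secreted proteins Sfrp2 (-3.14) and Dkk3 (-2.71) fell too. Fibroblast markers summed to 1554 to 2505 CPM in WT, 438 to 1346 CPM in PyMT and 4086 CPM in the left-out library. Their mean log2 CPM was 4.46 to 5.09, 1.71 to 2.99 and 6.13. The part of fibroblasts in these falls was not tested. With the left-out library, where Sfrp2 stood at 10.8 CPM and Dkk3 at 18.5 CPM, 1 member of the list (Wnt5a) was lower and 0 were higher, with Sfrp2 at -0.60 (adjusted p = 0.833), Dkk3 at -2.19 (adjusted p = 0.0595) and Lgr5 at -4.12 (adjusted p = 0.0597). Wnt5b (-1.26) lost its call without any WT library, day 6 replicate 1 or undated replicate 1 (largest adjusted p = 0.143). Besides Lef1, Wnt7a was called higher, from 0 to 0.0415 CPM in WT to 1.23, 6.08, 0.284 and 1.99 CPM, and lost the call without any library other than undated replicate 1 (largest adjusted p = 0.0629). Without day 6 replicate 2, 8 members were lower and 1 higher; 1 was also the count of higher members without WT replicate 2 or 3 or undated replicate 2.

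In the Notch list 3 of 16 members were lower and 0 higher, the ligand Dll4 and the target genes Hey2 and Heyl. Dll4 was at 4.33, 7.54 and 9.50 CPM in WT and 0.483, 0.801, 0.726 and 0.783 CPM in PyMT (log2 fold change -3.33, SE 0.36, adjusted p = 0.00109). Hey2 fell from 28.8, 46.1 and 48.6 CPM to 3.92, 1.47, 9.15 and 4.41 CPM (-3.11, SE 0.52) and Heyl from 1.502 to 2.06 CPM to 0.0537 to 0.284 CPM (-3.40, SE 0.50). The receptor Notch1 did not pass (adjusted p = 0.111). Dll4, Hey2 and Heyl kept their calls without any 1 library. Genes of blood vessel cells moved with them: Cdh5, which defines endothelium, was at 2.28, 16.0 and 12.5 CPM in WT and 0.253 to 0.676 CPM in PyMT, and in the left-out library Cdh5 stood at 45.1 CPM and Dll4 at 21.3 CPM. The part of these cells in the result was not tested.

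The TGF-beta and BMP list had 5 of 26 members lower and 2 higher. Bmp3 (-3.85) and Bmp7 (-1.11), both ligands, and the BMP targets Id3 (-2.31) and Id4 fell, as did Ltbp1 (-0.73), which holds latent TGF-beta in the matrix. Bmp7 was at 23.3, 26.4 and 32.4 CPM in WT and 13.3, 11.02, 14.8 and 11.5 CPM in PyMT. Smad7, the feedback inhibitor of the pathway, rose from 6.91, 12.0 and 7.004 CPM to 42.9, 41.5, 31.6 and 17.4 CPM (log2 fold change 1.95, SE 0.35, adjusted p = 0.00873). It kept its call without any 1 library. Tgfb2, a ligand, rose by 0.87 on the log2 scale and lost the call without WT replicate 1 or 3 (largest adjusted p = 0.0720), and Id3 lost its call without any WT library and without either undated library (0.101). The list had 1 member higher without WT replicate 1 or 3, 4 without day 6 replicate 1 and 6 without day 6 replicate 2. It had 3 lower without WT replicate 2, WT replicate 3 or undated replicate 1.

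Of 14 imprinted genes, 7 were lower and 1 higher, with a median log2 fold change of -2.03. Meg3, the maternally expressed noncoding RNA of the Dlk1 cluster, was at 19.5, 42.5 and 50.2 CPM in WT and 1.61, 0.634, 1.96 and 2.71 CPM in PyMT (log2 fold change -4.43, SE 0.49, adjusted p = 0.00144). Rian, the next RNA of that cluster on chromosome 12, fell from 18.1, 43.1 and 44.0 CPM to 2.31, 0.467, 1.42 and 2.35 CPM (-4.43, SE 0.54). Dlk1, the paternally expressed membrane protein, fell from 2.08, 5.63 and 15.3 CPM to 0.0631 to 0.215 CPM (-6.27, SE 0.79). These 3 neighbors were thus low together in all 4 PyMT libraries. Igf2, the fetal growth factor, fell from 3.68, 5.59 and 16.3 CPM to 0.698, 1.00, 0.189 and 0.178 CPM (-4.05, SE 0.74). Ndn (-4.14), Mest (-2.31) and Zim1 (-2.70) were the other members that fell, while H19, which shares a control region with Igf2, did not pass (adjusted p = 0.0787). Igf2r, the receptor that clears Igf2, rose by 0.99 on the log2 scale, a call lost without any WT library, day 6 replicate 1 or undated replicate 1 (largest adjusted p = 0.129). With the left-out library 1 member was called, and there Meg3 and Rian stood at 26.5 and 32.2 CPM, within the WT range. Fibroblast markers were lower in PyMT too. Their summed level was 1554 to 2505 CPM in WT and 438 to 1346 CPM in PyMT. The mean log2 CPM over these markers lay further apart, at 4.46 to 5.09 in WT and 1.71 to 2.99 in PyMT. The part of fibroblasts in the fall of Meg3, Rian, Dlk1 and Igf2 was not tested.

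The other large falls included secreted and surface proteins. Dmbt1, a mucosal scavenger protein, had the largest fall by the same limits, from 135, 135 and 82.3 CPM to 0, 0.134, 0.0631 and 0.854 CPM (log2 fold change -8.72, SE 0.74, adjusted p = 0.000609). Aoc1, the enzyme that degrades histamine and other diamines, fell from 13.9, 12.0 and 11.2 CPM to 0 to 0.178 CPM (-7.33). Col14a1, a collagen of fibril surfaces, fell from 130, 160 and 79.5 CPM to 0.429, 2.34, 0.631 and 0.961 CPM (-6.77), Reln, the extracellular protein reelin, from 27.5, 19.7 and 12.1 CPM to 0.126 to 0.392 CPM (-6.51), and Penk, the precursor of enkephalins, from 21.6, 50.7 and 30.6 CPM to 0.100 to 1.14 CPM (-6.01). The rule that named them required all PyMT libraries to lie below all WT libraries. Each kept its call without any 1 library. Tenm3 (-5.68), a neuronal adhesion protein, and Brinp1 (-5.27), known from neurons, fell in the same way. Col14a1 was at 49.7 CPM in the left-out library, where fibroblast markers summed to 4086 CPM. With that library in the model Col14a1 had no call (log2 fold change -3.49, adjusted p = 0.233). Myl1, Tnnt3 and Actc1, proteins of striated muscle, also met the naming rule. Myl1 was at 6.76, 7.41 and 34.96 CPM, Tnnt3 at 7.61, 8.10 and 32.7 CPM and Actc1 at 10.2, 6.92 and 34.0 CPM in the 3 WT libraries, and all were under 1.51 CPM in PyMT. WT replicate 3 was highest in all 3, which matches the summed level of the striated muscle list there (222 CPM against 57.0 and 58.0 CPM in the other WT libraries), so these 3 genes are given without a test.

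Genes of mitosis rose almost throughout. Of 31 members, 27 were higher and 0 lower, all 31 had a positive fold change, and the median log2 fold change was 0.95. Ccnb2, cyclin B2 that drives entry into mitosis, was at 41.7, 34.6 and 31.9 CPM in WT and 78.0, 74.8, 67.2 and 69.1 CPM in PyMT (log2 fold change 1.00, SE 0.14, adjusted p = 0.00305). Cdc20, the activator of the anaphase-promoting complex, rose from 59.8, 43.8 and 37.7 CPM to 121, 118, 105 and 87.2 CPM (1.19, SE 0.20, adjusted p = 0.00568). Anln, anillin of the cleavage furrow, rose from 70.3, 70.8 and 47.0 CPM to 148, 152, 166 and 139 CPM (1.27, SE 0.17). For all 3 the lowest PyMT library lay above the highest WT library, and their calls held without any 1 library. Plk1, a mitotic kinase (1.22), lost its call without WT replicate 2 (adjusted p = 0.0584). Mki67, the proliferation marker Ki-67, at 298, 307 and 180 CPM against 587, 538, 898 and 364 CPM (1.19), lost its call without any WT library, day 6 replicate 1 or undated replicate 1 (largest adjusted p = 0.143). The count of 27 fell to 11 without WT replicate 2 and 12 without WT replicate 3, and to 7 with the left-out library, where Ccnb2 stood at 32.4 CPM. WT replicate 3 had the lowest summed level of the list, 1228 CPM against 1751 and 1885 CPM in the other WT libraries and 2501 to 3641 CPM in PyMT.

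Genes of DNA replication, the step before mitosis, did not rise with it as a list. Only 2 of 31 were higher, with a median log2 fold change of 0.13: Tk1, thymidine kinase (1.14), and Pold1, a DNA polymerase subunit (0.68). Tk1 was at 101, 76.5 and 78.4 CPM in WT and 233, 143, 166 and 214 CPM in PyMT. Pold1 lost its call without WT replicate 2 or 3 (largest adjusted p = 0.0916), which left 1 member higher. With the summed level of the list at 1046 to 1608 CPM in WT and 1187 to 1925 CPM in PyMT, the groups overlapped. The 2 PyMT sets differed, however. The day 6 libraries stood at 1881 and 1925 CPM, above all WT libraries, and the undated ones at 1327 and 1187 CPM, within the WT range. The list's median log2 fold change against WT was 0.45 for the day 6 libraries alone and -0.25 for the undated ones alone. Among regulators of the G1 phase, 5 of 25 were higher and 2 lower. Ccnd1, cyclin D1, rose from 299, 365 and 283 CPM to 767, 864, 647 and 589 CPM (log2 fold change 1.18, SE 0.20, adjusted p = 0.00578). The inhibitors of its kinase rose as well: Cdkn2a from 2.85 to 3.45 CPM to 16.7, 13.7, 11.1 and 36.5 CPM (2.66, SE 0.43) and Cdkn2b by 0.94. Cdkn1a, the p21 inhibitor, went from 68.6, 80.7 and 146 CPM to 293, 427, 217 and 322 CPM (1.68, SE 0.32); its call was lost without WT replicate 2 (adjusted p = 0.0577), which left 3 members higher. E2f1, the fifth riser (0.52), lost its call without 6 of the 7 libraries, all but day 6 replicate 2 (largest adjusted p = 0.171). The 2 Myc relatives Mycl (-2.88) and Mycn (-2.28) fell, Mycn without a call when any WT library was left out (largest adjusted p = 0.0818).

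The CHR element is a short promoter sequence of many genes expressed in the G2 phase and mitosis, so the promoters of 3 list members are shown with its letters TTTGAA in capitals. Ccnb2 and Cdc20 are from the called members, and Cdk1, the mitotic kinase itself, was not called (adjusted p = 0.0937). All 3 lie on the minus strand of GRCm38.p6, at chr9:70421671-70421766 for Ccnb2, chr4:118437344-118437406 for Cdc20 and chr10:69352913-69352972 for Cdk1, and end before the gene's start.
Ccnb2: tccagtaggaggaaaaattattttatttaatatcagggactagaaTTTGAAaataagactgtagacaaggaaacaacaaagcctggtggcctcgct
Cdc20: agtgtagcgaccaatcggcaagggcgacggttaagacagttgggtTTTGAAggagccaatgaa
Cdk1: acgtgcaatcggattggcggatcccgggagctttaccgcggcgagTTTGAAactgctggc
Within 250 bases before the start and on either strand, 9 of the 27 mitosis genes with a RefSeq promoter held these letters (33.3%), against 18.3% of all genes; 7 of the 23 called members were among the 9. The match starts 167, 18 and 15 bases before the start in Ccnb2, Cdc20 and Cdk1, and Cdk1 has another at 71. A short motif of this kind matches often, and a match is a description only.

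Cholesterol synthesis genes also rose in large part. Of 23 members, 16 were higher and 1 lower, with a median log2 fold change of 0.84. Mvd, the decarboxylase of the mevalonate branch, rose from 35.7, 31.6 and 33.6 CPM to 84.9, 92.1, 95.8 and 61.4 CPM (log2 fold change 1.31, SE 0.18, adjusted p = 0.00247). Fdft1, squalene synthase, was even in WT at 98.1, 98.4 and 95.8 CPM and rose to 200, 175, 181 and 155 CPM (0.87, SE 0.13). Sc5d, a late desaturase, rose from 47.6 to 55.7 CPM to 89.4 to 100 CPM (0.89, SE 0.12). Mvd, Fdft1 and Sc5d kept their calls without any 1 library. Insig1, the sterol sensor (1.29), Hmgcs1, an early synthase of the pathway (0.91), and Srebf2, its transcription factor (0.62), were also higher. These 3 lost their calls in the fits without WT replicate 1 or 3 (largest adjusted p = 0.0881, 0.0947 and 0.166), and all but Hmgcs1 in further ones. The count of 16 fell to 8, 9 and 8 without WT replicate 1, 2 or 3, and to 1 with the left-out library, where Mvd stood at 19.4 CPM, below all other 7 libraries.

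The list's upstream sequence is shown for Hmgcs1, with the letters TCACNCCAC of the sterol regulatory element in capitals (GRCm38.p6, chr13:119690169-119690267, plus strand).
Hmgcs1: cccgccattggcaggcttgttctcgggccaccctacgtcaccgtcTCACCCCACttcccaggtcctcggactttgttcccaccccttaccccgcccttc
It begins 137 bases before the start. Of 15 members with a RefSeq promoter, this was the 1 gene with the exact letters on either strand, against 1.22% of all genes.

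Fatty acid synthesis genes rose in part. Of 12, 5 were higher and 0 lower, with a median log2 fold change of 0.74. Acss2, which makes acetyl-CoA from acetate, was at 21.2, 22.6 and 28.3 CPM in WT and 123, 124, 155 and 109 CPM in PyMT (log2 fold change 2.41, SE 0.18, adjusted p = 0.000278). Scd1, the desaturase that makes oleate, rose from 506, 498 and 352 CPM to 2275, 3180, 1663 and 1531 CPM (2.26, SE 0.31, adjusted p = 0.00293). Both were well separated and kept their calls without any 1 library. Thrsp, a lipogenic regulator (2.08), lost its call without WT replicate 2 or 3, and Acly, which makes acetyl-CoA from citrate (0.89), without any WT library or undated replicate 1 (largest adjusted p = 0.0835 and 0.110). Fasn, fatty acid synthase, did not pass (adjusted p = 0.0544). The count was 3, 2 and 2 without WT replicate 1, 2 or 3 and 0 with the left-out library.

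Of the glycolysis and hypoxia list, 7 of 26 members were higher and 0 lower. Slc16a3, the lactate exporter MCT4, rose from 99.7, 121 and 166 CPM to 281, 363, 293 and 331 CPM (log2 fold change 1.30, SE 0.20, adjusted p = 0.00467), and Hk2, the inducible hexokinase, from 67.3, 107 and 105 CPM to 187, 202, 194 and 162 CPM (1.00, SE 0.19). These 2 held without any 1 library. Car9, Vegfa and Ndrg1, targets of the hypoxia factor, rose by 1.22, 0.95 and 1.29 on the log2 scale. They lost their calls without WT replicate 1 or 2, Vegfa and Ndrg1 also without either undated library and Ndrg1 without day 6 replicate 1 (largest adjusted p = 0.0912, 0.156 and 0.170). In WT these 3 were highest in replicate 3, with Ndrg1 at 201, 340 and 646 CPM. The count was 2 without WT replicate 1 or 2, 4 without undated replicate 1, and 0 with the left-out library. Ldha overlapped between groups.

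Among the partners that middle T recruits, RNA levels were mostly similar in both groups. Of 23 members, 2 were higher and 0 lower. Pik3r3, a regulatory subunit of phosphatidylinositol 3-kinase, was at 47.3, 28.4 and 19.5 CPM in WT and 252, 96.1, 177 and 190 CPM in PyMT (log2 fold change 2.5, SE 0.40, adjusted p = 0.00567), and held without any 1 library. Src, the kinase middle T binds first, rose by 0.45 on the log2 scale, at 66.2, 61.8 and 63.9 CPM against 85.1, 88.3, 87.2 and 89.4 CPM. The change was small but the groups did not overlap; the call was lost without any WT library (largest adjusted p = 0.112), leaving 1 member. Without day 6 replicate 2, 5 members were higher. The catalytic subunit Pik3ca and the kinase Akt1 overlapped between WT and PyMT.

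A pair of EGF receptor ligands rose. Tgfa, a ligand made by mammary epithelium, was at 43.8, 43.8 and 35.6 CPM in WT and 146, 153, 115 and 126 CPM in PyMT (log2 fold change 1.72, SE 0.16, adjusted p = 0.000625). Hbegf, a membrane-anchored ligand, rose from 3.53, 4.34 and 3.50 CPM to 31.8, 58.4, 12.7 and 31.0 CPM (3.14, SE 0.47, adjusted p = 0.00448). Both were separated from WT and held without any 1 library, whereas in the left-out library Tgfa stood at 9.44 CPM. The receptors Egfr and Erbb2 overlapped. Erbb4, the receptor linked to lactation, was lower (-3.24), at 1.68 to 5.07 CPM in WT and 0.107 to 0.726 CPM in PyMT, with adjusted p = 0.0565 without WT replicate 2. Of 15 list members 2 were thus higher and 1 lower; without day 6 replicate 2, 4 were lower. Feedback genes of the MAPK pathway had 3 of 16 higher: the phosphatases Dusp4 (1.01) and Dusp5 (1.71) and the transcription factor Etv4 (0.72). Dusp4 went from 63.5, 81.6 and 86.1 CPM to 189, 159, 147 and 127 CPM. Dusp5 and Etv4 lost their calls without WT replicate 2 (adjusted p = 0.0561 and 0.0554), leaving 1, and 5 members were higher without day 6 replicate 2. On the FGF side, the receptor Fgfr2 fell from 33.9, 39.9 and 29.6 CPM to 7.09, 8.98, 12.6 and 9.08 CPM (-1.86, SE 0.22), and the ligand Fgf2, which the tumor culture medium also supplied, from 7.598 to 11.1 CPM to 2.04 to 2.78 CPM (-1.93, SE 0.25). Fgfr1 did not pass (adjusted p = 0.259). Fgfbp1, a carrier that releases FGFs from matrix, rose (1.38) with a call lost without any WT library (largest adjusted p = 0.0962).

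Early response genes of the AP-1 family rose in part, 4 of 20, namely Fos, Fosb, Jun and Egr3. Fos was at 26.1, 34.8 and 44.8 CPM in WT and 208, 227, 121 and 52.7 CPM in PyMT (log2 fold change 2.11, SE 0.48), lowest in undated replicate 2. Fosb (3.28), Jun (0.63) and Egr3 (1.49) followed. Calls on all 4 were lost without WT replicate 2 or 3, those on all but Egr3 without WT replicate 1, and that on Jun also without undated replicate 1; the largest adjusted p was 0.0963 for Fos, 0.0718 for Fosb, 0.120 for Jun and 0.0959 for Egr3. Targets of p53 had 4 of 18 members higher and 17 of 18 with a positive fold change. Ccng1, cyclin G1, rose from 66.1, 93.8 and 77.9 CPM to 130, 174, 189 and 154 CPM (1.03, SE 0.18) and held without any 1 library, while Zmat3 (1.65) lost its call without WT replicate 1 or 3 (largest adjusted p = 0.0795). The p53 count was 2 without any 1 of the WT libraries. Trp53cor1, the noncoding RNA lincRNA-p21 beside Cdkn1a, rose from 0.416 to 0.451 CPM to 2.25, 0.968, 1.61 and 2.06 CPM (1.97, SE 0.39), with the call lost without WT replicate 2 or 3 (largest adjusted p = 0.0620). Trp53 overlapped. Of 18 stress response genes, Trib3, a pseudokinase, was the 1 called (0.91), without a call when any WT library was left out (largest adjusted p = 0.0844).

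Of the interferon response list, a few genes rose, with 34 of 35 fold changes positive, 7 members higher and 0 lower, and a median log2 fold change of 0.79. Oas3, an antiviral oligoadenylate synthetase, was at 0.426, 0.436 and 0.950 CPM in WT and 12.9, 5.24, 4.29 and 5.02 CPM in PyMT (log2 fold change 3.51, SE 0.54, adjusted p = 0.00448), and held without any 1 library. Oas2 rose by 3.59 on the log2 scale, at 0.376, 1.62 and 2.85 CPM against 50.9, 11.7, 9.79 and 5.23 CPM, with a call lost without any WT library or undated replicate 1 (largest adjusted p = 0.152). Stat2 (0.67), part of the interferon signal complex, and Gbp2 (1.07), a guanylate-binding protein, rose with smaller steps; Stat2 lost its call without WT replicate 1 or 2 and Gbp2 without any WT library (largest adjusted p = 0.0862 and 0.0758). Isg15, a ubiquitin-like product of the response, overlapped between groups. Day 6 replicate 1 had the highest summed level among the PyMT libraries (1184 CPM against 631 to 862 CPM), WT had 381 to 616 CPM, and the left-out library 2026 CPM. The count of 7 was 1, 1 and 4 without WT replicate 1, 2 or 3, 4 without day 6 replicate 1 and 13 without day 6 replicate 2; with the left-out library it was 2.

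The interferon-stimulated response element is searched here as GAAA, any 2 bases and GAAA again, marked in capitals on either strand of 3 upstream stretches (GRCm38.p6) from called members. These are chr5:120777680-120777779 (minus strand) for Oas3, chr10:128270248-128270330 (plus strand) for Stat2 and chr3:142620559-142620658 (plus strand) for Gbp2; in the latter 2 the match is on the opposite strand, so that TTTC is read in place of GAAA.
Oas3: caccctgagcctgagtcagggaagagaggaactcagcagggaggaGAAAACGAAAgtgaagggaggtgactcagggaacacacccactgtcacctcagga
Stat2: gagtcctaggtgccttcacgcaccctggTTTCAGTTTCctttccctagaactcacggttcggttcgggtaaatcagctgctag
Gbp2: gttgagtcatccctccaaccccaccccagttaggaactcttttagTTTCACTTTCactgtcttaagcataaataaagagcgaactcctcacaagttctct
Of the 25 list members with a RefSeq promoter, 13 held these letters (52%), against 3.46% of all genes, and 3 of the 4 called ones did. The other 10 had no call, Isg15 among them.

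Signals to the surroundings changed in both directions. Of 22 chemokine and cytokine genes, 4 were higher and 1 lower. Cxcl14, a chemokine of normal epithelium, fell from 96.3, 74.1 and 128 CPM to 2.20, 4.21, 4.89 and 8.22 CPM (log2 fold change -4.34, SE 0.40, adjusted p = 0.000761). Ccl28, a mucosal chemokine, rose from 1.25 to 3.27 CPM to 12.2, 5.51, 12.3 and 15.1 CPM (2.38, SE 0.44). Both held without any 1 library. Il23a (3.23), Ccl20 (3.47) and Il1a (3.24), an interleukin subunit, a chemokine and an alarm cytokine, rose from under 1 CPM in every WT library. Each lost its call without WT replicate 2, Ccl20 and Il1a also without WT replicate 3, and Il1a without WT replicate 1 and undated replicate 2 as well (largest adjusted p = 0.0504, 0.0992 and 0.140). The list had 1 and 2 members higher without WT replicate 2 or 3 and 8 without day 6 replicate 2, and it had 2 and 4 members lower without day 6 replicate 1 or 2. Among proteases and their inhibitors, 3 of 20 were higher and 3 lower. Mmp9, a gelatinase, rose from 0.926, 1.47 and 1.87 CPM to 4.62, 10.8, 9.88 and 15.4 CPM (2.84, SE 0.45, adjusted p = 0.00495), whereas the gelatinase Mmp2, made mainly by stromal cells, fell, beside the fibroblast markers above, from 126, 130 and 176 CPM to 15.4, 7.98, 27.5 and 22.9 CPM (-2.97, SE 0.38). Neither Mmp9 nor Mmp2 was called with the left-out library in the model (adjusted p = 0.146 and 0.111). The list had 1 member higher without any 1 of the WT libraries. Zeb1 (-2.93) and Zeb2 (-2.68), repressors of epithelial genes, were the 2 of 14 EMT regulators that fell, and both held without any 1 library. They are also expressed in fibroblasts and macrophages, and they stood at 9.40 and 9.97 CPM in the left-out library, above all 7 others. Neither was called with that library in the model (adjusted p = 0.472 and 0.676). Cdh1, E-cadherin, did not pass (adjusted p = 0.104).

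Of 1133 long noncoding RNAs tested, 28 were higher and 130 lower, with a median log2 fold change of -0.47. Gm16010, typed as antisense, had the largest rise, from 0.175, 0.125 and 0.0594 CPM to 29.8, 7.78, 14.4 and 12.7 CPM (log2 fold change 7.01, SE 0.64, adjusted p = 0.000596), and stood at 0.0375 CPM in the left-out library. The strand setting of the counting is not given in the sources used here, so its reads and those of the gene opposite cannot be told apart. A330074K22Rik rose from 0.225 to 0.478 CPM to 4.78, 2.30, 4.14 and 5.41 CPM (3.57, SE 0.45), and Zfp469, typed as noncoding in the annotation used, from 0.920 to 1.68 CPM to 11.9, 6.24, 10.1 and 5.52 CPM (2.57, SE 0.39). These 3 held without any 1 library. C130071C03Rik, the host transcript of a brain microRNA, was at 0.0415 to 0.119 CPM in WT and 18.5, 1.00, 1.70 and 4.09 CPM in PyMT (6.16, SE 1.28), and Gm13387 at 0.776 to 1.04 CPM and 2.81 to 8.75 CPM (2.51, SE 0.49). C130071C03Rik lost its call without any WT library and Gm13387 without WT replicate 1 or 2 (largest adjusted p = 0.0804 and 0.0573). Besides Tbx3os2 and Rian, the largest falls among those at 2 CPM or more in WT were Gm12349 (-6.37), Gm28653 and Gm33651 (-4.45). Gm12349 and Gm33651 held without any 1 library. Gm28653 was at 1.25, 1.10 and 5.22 CPM in WT and 0 to 0.134 CPM in PyMT, highest in WT replicate 3 as were the striated muscle genes above, and like them it is given without a test. Among 15 noncoding RNAs chosen by name, the snoRNA hosts Gas5 (-0.92), Zfas1 (-1.08) and Snhg12 (-0.75) were lower and Trp53cor1 higher. Gas5 was at 429, 351 and 501 CPM in WT and 208, 192, 175 and 326 CPM in PyMT. Calls on Gas5, Zfas1 and Snhg12 were lost without WT replicate 1 or 3 and without day 6 replicate 1, those on Gas5 and Zfas1 also without WT replicate 2 or undated replicate 1 (largest adjusted p = 0.130, 0.175 and 0.0890), and the count of lower members ranged from 0 without WT replicate 1, WT replicate 3 or day 6 replicate 1 to 5 without undated replicate 2. Malat1 and Neat1, abundant nuclear RNAs, overlapped or did not pass (adjusted p = 0.873 and 0.201).

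Lists of genes of cell types outside the epithelium are given as levels without a test, since such genes set the left-out library apart. Macrophage markers summed to 206 to 340 CPM in WT, 105 to 294 CPM in PyMT and 1002 CPM in the left-out library, with C1qa at 2.87 to 5.85, 0.701 to 2.42 and 102 CPM. Fibroblast markers were lower in PyMT for all collagens of the list; Col3a1 was at 130, 94.1 and 185 CPM in WT and 4.83, 5.31, 16.0 and 10.2 CPM in PyMT, against 1013 CPM in the left-out library. Endothelial markers summed to 37.2 to 105 CPM in WT and 44.6 to 94.3 CPM in PyMT, but a single gene made up most of the PyMT sum: Flt1, a VEGF receptor, stood at 57.0, 35.9, 78.1 and 50.1 CPM there and 4.68 to 7.68 CPM in WT, while Cdh5 and Tie1 were under 0.7 CPM. T, B and NK cell markers summed to under 6 CPM in all 7 libraries, with the T cell marker Cd3e at 0 to 0.0316 CPM. MHC class I genes were higher in the PyMT sum (1915 to 2656 CPM against 1340 to 1752 CPM) and highest in the left-out library (6348 CPM). MHC class II summed to 14.7 to 34.9 CPM in the 7 libraries and 320 CPM in the left-out one.

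**Figure D3:**
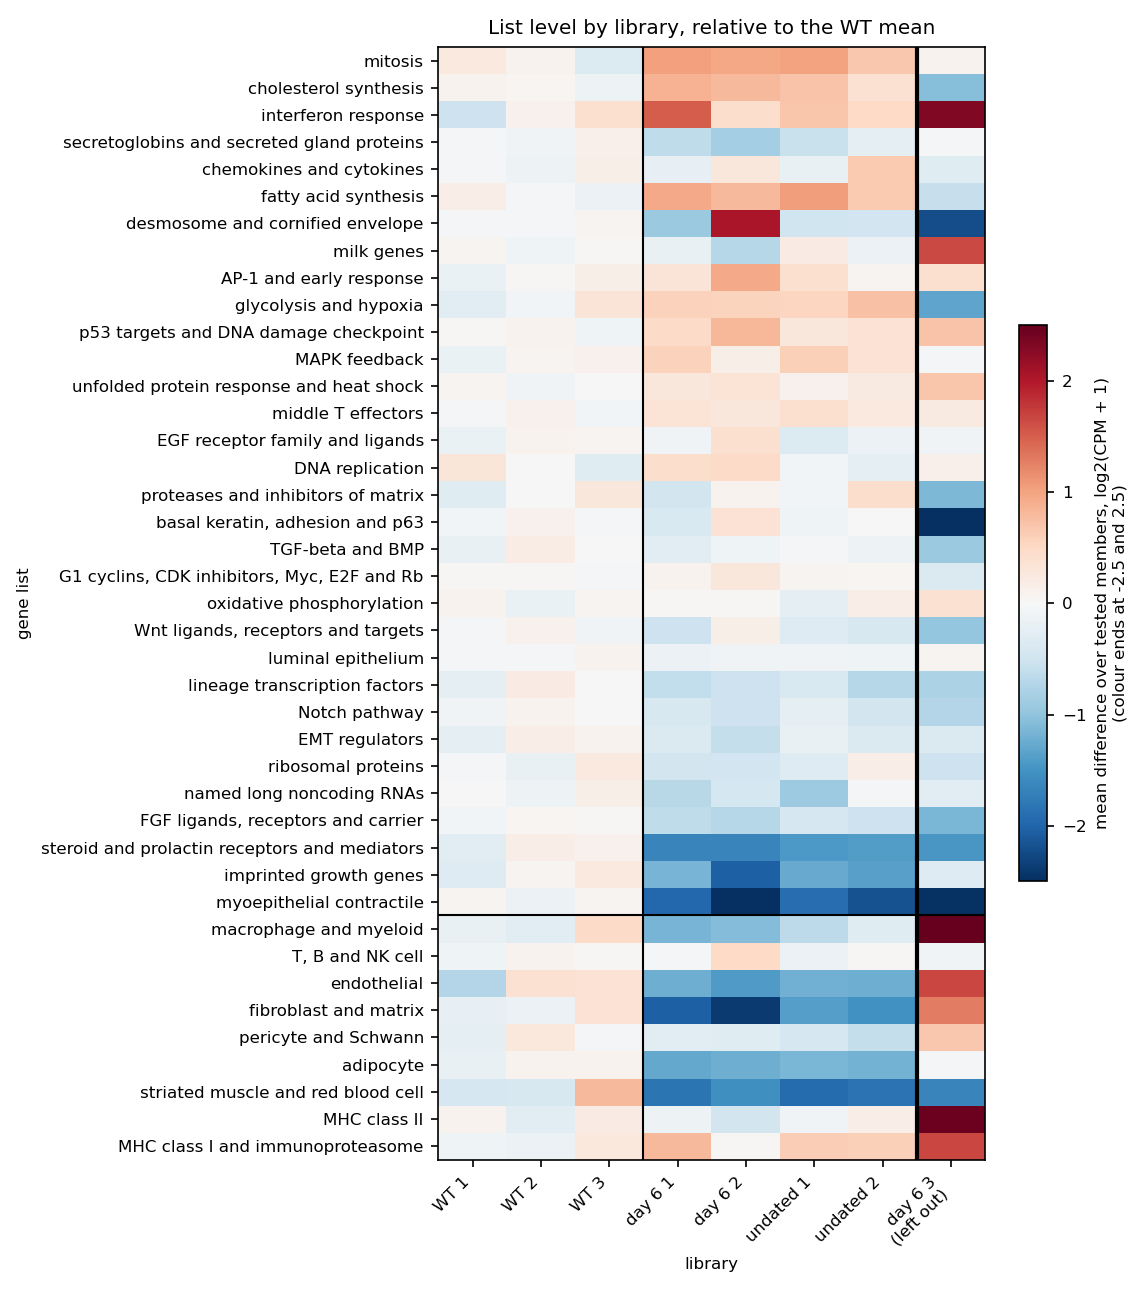
Rows are gene lists, columns libraries; color gives the mean over tested members of log2(CPM + 1) minus the WT mean, from blue (lower) to red (higher), with the left-out library right of the thick line and lists of other cell types and MHC genes under the thin horizontal line. Mitosis, cholesterol and fatty acid synthesis are red in all 4 PyMT libraries, day 6 replicate 2 alone is dark red in the desmosome and cornified envelope row, and the left-out library is red in the macrophage, endothelial and fibroblast rows where the 4 are blue.

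No gene separated the 2 PyMT sets in the main edgeR fit, though 63 were called by edgeR without the filter on low counts. Between day 6 and undated libraries, 0 of 16928 genes passed (edgeR, 2 against 2 in a model with WT), 1803 had an unadjusted p under 0.05, and DESeq2 called 267. The contrast called 1212 genes without day 6 replicate 1 and 15 without day 6 replicate 2; each of these fits holds 1 day 6 library, which is assumed to vary like the WT and undated libraries. Day 6 replicate 2 stood apart in genes of stratified, cornifying epithelium. Krt16, a keratin of activated epidermis, was at 2194 CPM there and 27.9 to 102 CPM in the other 6 libraries. Krt6a was at 1254 CPM against 55.7 to 267 CPM, and Krt90 at 460 CPM against 0 to 1.28 CPM. Klk7, a protease that cleaves corneodesmosin, was at 292 CPM against 1.13 to 34.7 CPM, and Cnfn, cornifelin, at 151 CPM against 0.0831 to 1.28 CPM. The summed level of the desmosome and cornified envelope list was 8968 CPM there and 2334 to 3103 CPM elsewhere. Axin2, a Wnt feedback target, also stood out at 78.0 CPM against 0.107 to 0.859 CPM. None of these 6 genes was called against WT. Of 23 list members, 1 was lower and 0 higher against WT, and without day 6 replicate 2 there were 7 lower and 5 higher. The 1 was Ivl, involucrin, at 12.1, 22.8 and 26.0 CPM in WT and 0.107, 3.31, 0.347 and 0.214 CPM in PyMT (-4.31), with a call lost without any WT library or undated replicate 1 (largest adjusted p = 0.0949).

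**Figure D4:**
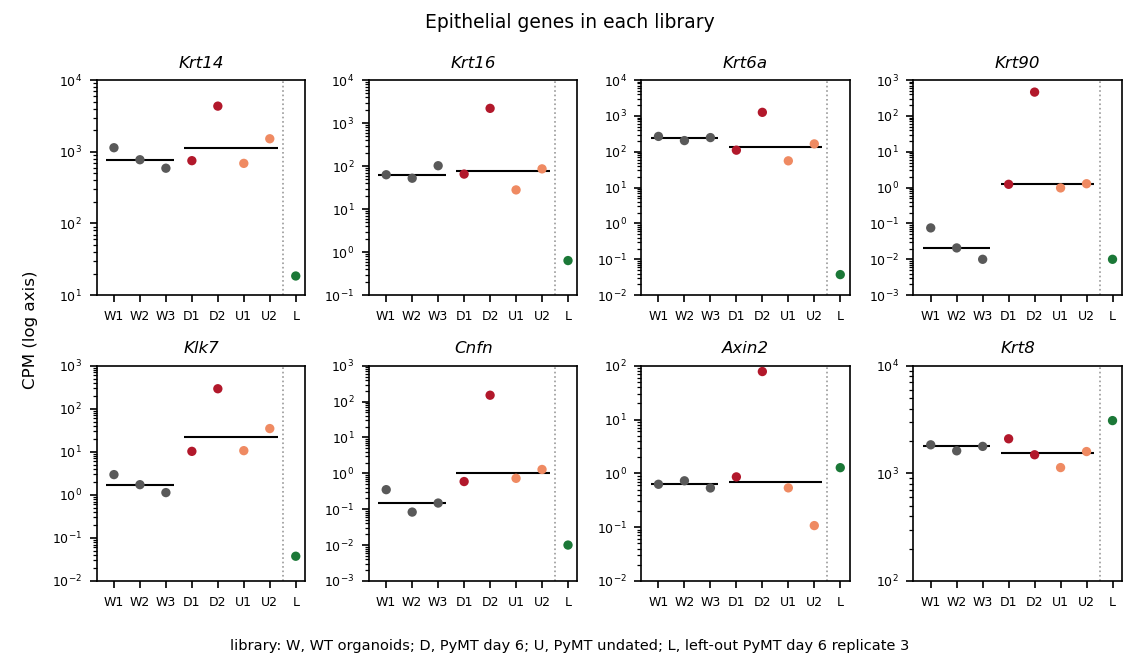
Each panel gives 1 gene's CPM (log axis) in the 3 WT, 2 PyMT day 6, 2 PyMT undated libraries and the left-out library (green), with group medians as black lines; values of 0 are drawn at 0.01. Day 6 replicate 2 (D2) is the highest library in the first 7 panels and lies within the range of the others for Krt8.

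To show which changes also set PyMT apart from other cultured tumor cells, the 4 libraries were compared with 3 libraries of MMTV-Neu-NDL organoids, in which the same promoter drives an activated form of Neu, the rat counterpart of Erbb2. Erbb2 counts were 4411 to 8333 CPM in the Neu-NDL libraries and 92.0 to 143 CPM in PyMT. Of 17066 genes, 1261 were higher in PyMT (7.39%) and 1799 lower (10.5%). Without Neu-NDL replicate 2 or 3 or undated replicate 2, there were 1884, 1913 and 2034 calls in place of 3060. The PyMT libraries enter both this and the WT comparison, so values are set side by side. Saa1 was at 0.683 to 14.3 CPM in Neu-NDL (PyMT minus Neu-NDL 6.22, SE 0.89, adjusted p = 0.00265) and Saa2 at 0.589 to 16.4 CPM (6.14, SE 0.91). Itga3 was at 91.0 to 103 CPM in Neu-NDL, close to its WT level (1.91, SE 0.14, adjusted p = 0.000285). Among basal list members 11 of 20 were higher in PyMT than in Neu-NDL; Krt14, for one, was at 15.2 to 269 CPM there (3.69, adjusted p = 0.0302). Of 31 mitosis genes 16 were higher in PyMT, of 23 cholesterol genes 1, and of 15 contractile genes 1 was higher and 2 lower, with Acta2 at -0.79 (adjusted p = 0.229). Of 35 interferon genes 7 were lower in PyMT than in Neu-NDL, Stat2 among them (-0.89). Macrophage markers summed to 2738, 2858 and 682 CPM in Neu-NDL replicates 1, 2 and 3 and 105 to 294 CPM in PyMT, and MHC class II genes to 153.5 to 301 CPM and 14.7 to 29.1 CPM. Neu-NDL replicate 3, the lowest of the 3 for macrophage markers, had the highest interferon list sum, at 2536 CPM against 1301 and 1144 CPM. The part of other cell types in the interferon difference was not tested.

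The 5 largest rises over Neu-NDL by the naming rule were Krt90, Spink12, Klk7, Endou and Slit1. The first 4 were highest in day 6 replicate 2, and Krt90, Spink12 and Endou lost their calls without any 1 of the WT or Neu-NDL libraries (largest adjusted p = 0.106, 0.117 and 0.126). Slit1 was high in all 4 PyMT libraries, at 18.4 to 67.0 CPM against 0.212 to 0.644 CPM (log2 difference 6.70, SE 0.67, adjusted p = 0.000753). The 5 largest falls were Ahsg, Dlk1, Odam, Lyz1 and Unc79, which spread widely among the Neu-NDL libraries. Dlk1 was at 76.7, 11.1 and 2.28 CPM in Neu-NDL replicates 1, 2 and 3, where fibroblast markers summed to 6489, 536 and 495 CPM (438 to 1346 CPM in PyMT). In PyMT tumor sections 1, 2 and 3, Dlk1 was at 0.428, 0.653 and 3.46 CPM and the fibroblast sum was 8405, 3516 and 5112 CPM. Lyz1, a lysozyme, was at 15.9, 168 and 2.07 CPM in Neu-NDL replicates 1, 2 and 3, where macrophage markers summed to 2738, 2858 and 682 CPM. Replicates 1 and 2 were thus close in this sum but not in Lyz1. The part of these cells in the falls was not tested. Odam, for example, was at 0.241, 8.21 and 96.4 CPM in the Neu-NDL libraries and 0.0712 to 0.234 CPM in PyMT.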

How the data were processed

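Raw counts per gene were deposited by the authors, 1 table per library; per the submitters' processing notes the tools include CASAVA, FastQC, STAR, HTSeq and DESeq2 with the mm10 build, and versions, annotation release and strand setting are not given in the sources used here. Of 45318 gene IDs, 44585 matched GENCODE names. Summary lines without a gene stayed out of library sizes (5.70 to 8.62% without a feature, 4.68 to 6.75% ambiguous). Counts were tested with edgeR 4.0.16 (R 4.3.3; TMM, filterByExpr, robust quasi-likelihood) with Benjamini-Hochberg adjustment at 0.05. CPM values are TMM-scaled. On simulated data of 16305 genes for the PyMT against WT design, 31% of the 100 simulated 2-fold changes were recovered, as were 76% of the 100 at 4-fold, and 7.76% of calls were unchanged genes.

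The members and gene lists were chosen with earlier results of these data known. Named genes were the 14 largest rises and falls among called genes whose groups did not overlap and whose higher group averaged 10 CPM or more, without predicted or clone names, 5 long noncoding RNAs each way (2 CPM), 5 each way against Neu-NDL, and list members. The lists of other cell types and MHC genes got no test, since such levels chose the left-out library. Col14a1, Mmp2, Zeb1 and Zeb2 were tested, and had no call with that library in the model. Alternatives were DESeq2 1.42.0, RLE scaling, no filter, all 20 libraries, a replicate block, the left-out library included, each PyMT set alone, both set means averaged, and each library left out. Some members of the lists are counted but not reported here by name.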

Additional observations from a re-analysis of the deposited data

Results flagged for a closer look

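In the 4 PyMT libraries, 189 genes and 32 list means were checked for 1 library far from the other 3, by the gap to the nearest value as a share of the range; chance flags about 1 in 20 groups. Day 6 replicate 2 was the highest for Krt90 (share 0.958, log2 CPM 8.84 against 0.06 to 0.42), Endou (0.85, 6.81 against -0.30 to 0.76), Gm28653 (1.0), Ahsg (1.0) and the mean of the G1 regulator list (0.887, 4.93 against 4.64 to 4.68). Gm28653 and Ahsg were near 0 in all 4. Day 6 replicate 1 was lowest for Csn2 (0.834, -1.86 against 0.46 to 0.92) and highest for Dlk1 (0.921, -1.86 against -3.01 to -2.92). Undated replicate 2 was lowest for Top2a (0.893, 7.96 against 8.38 to 8.43) and highest for Cxcl15 (0.868, 1.43 against -0.82 to -0.52) and Gm33651 (0.945, -0.37 against -1.67 to -1.60).

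The left-out library entered no main comparison. Lists of other cell types or MHC class II genes were flagged where its marker sum lay above all WT and PyMT libraries, which held for 7. It did not hold for the striated muscle and red blood cell list (143.6 CPM against 57.0 to 221.7 CPM in WT). Such levels chose this library, so these sums describe it and are no separate check. Macrophage markers summed to 1002 CPM (WT at most 340), fibroblast markers to 4086 CPM (2505), endothelial markers to 323.3 CPM (105) and MHC class II genes to 319.6 CPM (34.9). Pericyte and Schwann markers summed to 1037 CPM (908), adipocyte markers to 94.97 CPM (54.6) and T, B and NK cell markers to 8.617 CPM (5.70).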

How the results depend on the processing

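No call of PyMT against WT reversed under any alternative run. Its 2433 calls became 854 with the replicate number as a block, 546 with the left-out library, and 1076 to 3039 with each library left out. Deviations of same-numbered libraries correlated at 0.021 and 0.011 for WT with day 6, -0.098 and -0.293 for WT with undated, 0.17 and 0.117 for day 6 with undated, -0.2 to -0.039 for WT with Neu-NDL, -0.078 and 0.286 for day 6 with Neu-NDL and 0.007 and 0.032 for undated with Neu-NDL. Day 6 deviations were taken from the mean of all day 6 libraries, the left-out one included. That library gave 0.154 with WT and 0.046 with Neu-NDL. Its distance from the kept day 6 libraries enters their deviations, so the day 6 values cannot decide a pairing of the kept libraries. The numbers were not taken to pair WT or Neu-NDL with PyMT; whether day 6 and undated libraries share tumors is not given in the sources used here. DESeq2 made 3610 calls, of which 2400 were shared. The day 6 against undated contrast went from 0 calls to 63 without a filter, 267 with DESeq2, and 0 to 1212 with each library left out; the replicate block gave 0. The 3060 calls against Neu-NDL became 1282 with the replicate block, 586 with the left-out library, 789 with the day 6 libraries alone, and 1884 to 3220 with each library left out. The cause of these moves was not tested, but the fits without a library hold fewer samples. Of 192 results for single genes, 164 were called; 107 of these lost their call with the left-out library and 65 with the block, and none reversed. In the simulation 31% of the 2-fold changes were recovered. It changed 100 genes at each size out of 16305, far fewer than the 2433 called in the data. The adjusted p depends on how many genes change, so this share may not hold for the data.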
